A study of Homo sapiens with 6 samples.

Results

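Microexons are very short internal exons, and the ones examined here were 3 to 30 nt long. An exon of this size leaves little room for the proteins that normally define an exon from both of its ends, so that its inclusion depends strongly on the signals at its splice sites and in the flanking introns. Many known microexons are included mainly in neurons, where they insert a few amino acids into proteins of the synapse and the cytoskeleton, and others are used in most cell types. U2AF1 is the small subunit of U2AF, the factor that binds the polypyrimidine tract and the AG at the 3′ end of an intron. S34F replaces a serine with a phenylalanine in a zinc finger of U2AF1 and is a recurrent change in myeloid malignancies.

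A microexon was taken as an exon of 3 to 30 nt between 2 splice junctions of one strand whose outer ends are also joined directly by a skipping junction. Each of the 3 junctions needed at least 10 reads over the 6 libraries. The mean of both inclusion junctions plus the skipping junction had to reach 20 reads in every library. This gave 363 different exons in 387 combinations of an exon and a skipping junction, out of 19136 combinations for cassette exons of 3 to 500 nt. In all, 20 of the exons had more than 1 skipping junction. The 387 combinations are the members counted below. Another 106 combinations of 3 to 30 nt did not reach the read minimum in every library. The members were thus chosen by exon length and by read counts, and the difference between genotypes was not used. Needing reads at inclusion and skipping junctions does restrict inclusion, since exons never or always included are left out. A junction could also reach its 10 reads through the libraries of 1 group alone.

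The libraries were made from poly(A)+ RNA of K562, a human chronic myeloid leukaemia line. One group, called WT here, was 3 libraries of a line into which wild-type U2AF1 was knocked in, and the other was 3 libraries of cells with U2AF1 S34F. Whether each genotype is a single clone is not given in the sources used here. The labels do not say that the replicates came from separate cultures, so that the p-values measure only the spread between these libraries, which may be technical. The libraries held from 18074706 (S34F replicate 2) to 39279169 (S34F replicate 3) uniquely mapped spliced reads. Junction counts do not show a base substitution, so that the genotype labels were not checked. Marker genes of K562 and of other cell types were not analysed here, because gene positions of the files' build, hg19 per the submitters' processing notes, were not used. Exons are therefore named by their hg19 position, and the genes and untranslated regions they lie in were not analysed here. The sequences of the exons and of their splice sites were not analysed here either.

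Lengths that are multiples of 3 were frequent among the members. They made up 225 of 387 (58.1%), compared with 39.3% of the 18749 combinations with exons of 31 to 500 nt. A length of this kind keeps the reading frame wherever the exon is coding. The most frequent length was 30 nt with 61 combinations, followed by 27 nt with 38, 24 nt with 34, 21 nt with 25 and 28 nt with 24. Only 36 combinations had exons of 3 to 9 nt. All 3 junctions were annotated in 189 members (48.8%), which is close to the 44.4% among longer exons. The flanking introns had median lengths of 1281 nt upstream and 1302 nt downstream, shorter than the 1734 nt and 1669 nt around longer exons. These are descriptions of the exons with enough reads in K562, and no test was made over exons.

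**Figure D1:**
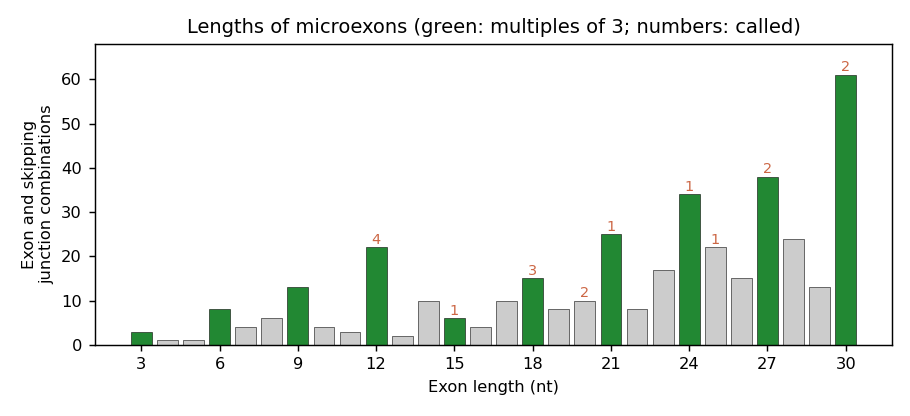
Number of microexon combinations (y axis) by exon length in nt (x axis), with multiples of 3 in green and the number of called microexons above the bars. The tallest bar is 30 nt with 61 combinations, and 14 of the 17 calls stand over green bars.

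Inclusion was the percentage that the mean inclusion count took of the mean inclusion count and the skipping count together. Most members were either nearly always or rarely included in WT. In all, 174 members (45.0%) were above 90%, 92 (23.8%) were below 10%, and 121 (31.3%) lay between. The corresponding shares of longer exons were 55.6%, 21.5% and 22.9%. The median inclusion of the members was 84.8%, 84.4% and 83.9% in WT replicates 1 to 3 and 83.2%, 80.4% and 79.6% in S34F replicates 1 to 3. All S34F medians were thus below all WT medians, although the median of the differences taken member by member was only -0.187 points. Among longer exons the medians were 92.2%, 93.5% and 93.4% in WT and 92.8%, 90.8% and 91.6% in S34F, where the groups overlapped.

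An exon spliced in at both ends gives reads at both inclusion junctions, and in many members these counts were far apart. Pooled over the libraries, the inclusion junctions were within 2-fold of each other in 220 members (56.8%) and over 10-fold apart in 110 (28.4%). Among longer exons 65.1% were within 2-fold and 18.8% over 10-fold apart. When one junction holds nearly all inclusion reads, the inclusion level follows that junction. A 30 nt exon of chromosome 4 (minus strand, 56473465 to 56473494) had 27 pooled reads at its upstream junction and 33652 at its downstream junction. The 220 members within 2-fold of each other, a subset set after the data were seen, were all different exons. Their median inclusion was 65.4%, 63.3% and 64.0% in WT replicates 1 to 3 and 57.1%, 56.2% and 53.9% in S34F replicates 1 to 3. Here, too, the S34F medians lay below the WT medians. The median of the differences taken member by member was, however, only -0.345 points, beside -0.109 among balanced longer exons. Most of the balanced members lay below 10% (28.2%) or above 90% (35.9%) in WT. The gap between the library medians is therefore not the typical change of a member.

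**Figure D2:**
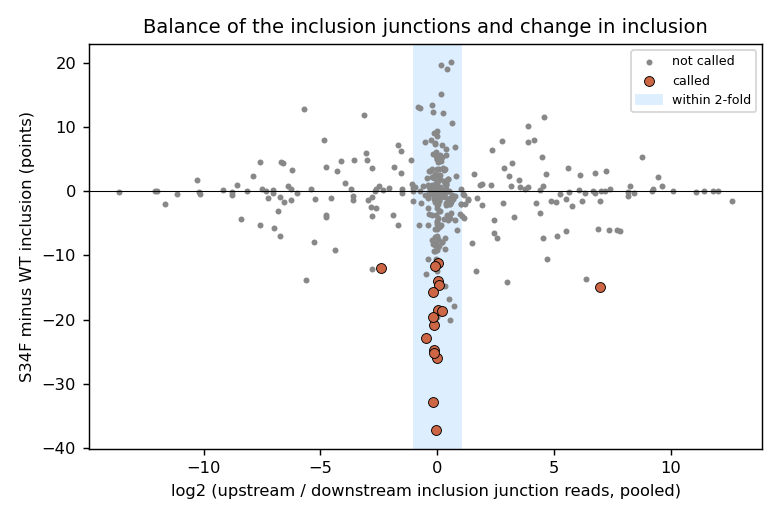
Difference in inclusion between S34F and WT in percentage points (y axis) against log2 of upstream over downstream inclusion junction reads, pooled (x axis), for the 387 members. Of the 17 called members, 15 lie in the shaded band where the junctions are within 2-fold, and all 17 lie below 0.

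Next it was asked which microexons differed between S34F and WT. In all, 17 of the 387 members were called, and all 17 had lower inclusion in S34F. A call required an adjusted p-value under 0.05 in edgeR's quasi-likelihood test over all 19136 combinations and at least 10 percentage points between the group means. A member above 90% in WT cannot rise by 10 points, and one below 10% cannot fall by as much. The 174 members above 90% gave 8 of the 17 calls, and there were 92 below 10%. The direction was thus partly fixed in advance. The 121 members in between gave 9 calls, all lower. Over all combinations 2.72% were called, 1.70% with lower and 1.02% with higher inclusion, against 4.39% of the members. The differences ranged from -37.29 to -11.1 percentage points with a median of -18.62, and in all 17 each S34F library lay below each WT library. In a bulk library, skipping in a part of the cells and partial skipping in every cell cannot be told apart. No member was called with higher inclusion in this fit or with DESeq2, although 29 members had higher inclusion at an unadjusted p under 0.05 in edgeR. Limma called 0 of all combinations in either direction, so that its calls cannot show a direction.

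The wider counts leaned the same way. At an unadjusted p under 0.05, 70 members were lower (18.1%) and 29 higher (7.49%), beside 14.4% lower and 9.47% higher over all combinations. The S34F libraries were all below the WT libraries in 74 members (19.1%) and all above in 48 (12.4%), beside 16.7% and 12.7% over all combinations. This last pair of shares lay close to the background. With no test at all, 36 members (9.3%) were at least 10 points lower and 14 (3.62%) at least 10 points higher, beside 4.90% and 4.18%. The median difference was -0.187 points among the members and -0.0873 over all combinations.

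**Figure D3:**
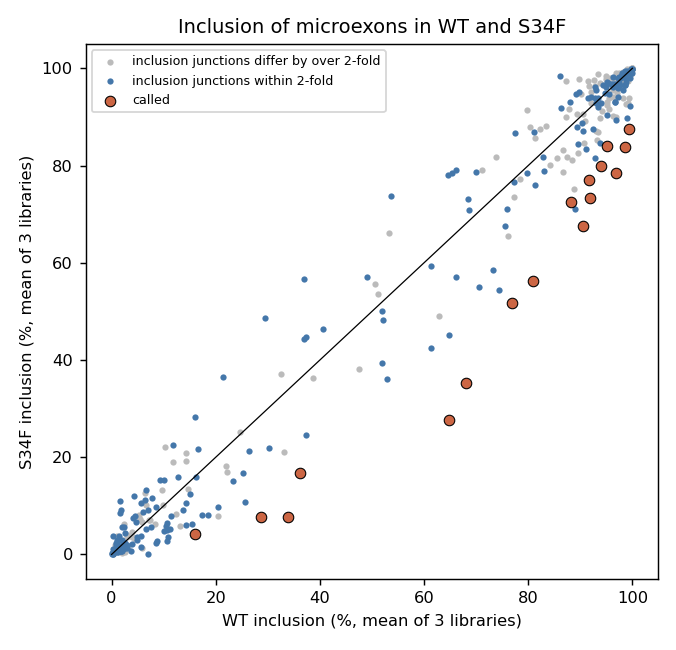
Mean inclusion in S34F (y axis, %) against WT (x axis, %), 3 libraries each, for the 387 members, with called members as large points and the line of equality drawn. All 17 called members lie below the line, between 15.9% and 99.4% in WT.

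Other edgeR settings did call members with higher inclusion: 1 each with at least 50 reads per library, with no minimum per library, with multi-mapped reads added and with the downstream junction alone. The number of calls depended on single libraries. Without S34F replicate 3, the deepest library, 0 members were called by edgeR, with 45 lower and 14 higher at an unadjusted p under 0.05. Over all combinations this fit gave 8 calls. Without WT replicate 1 there were 31 calls, 22 lower and 9 higher, beside 1045 over all combinations, 631 lower and 414 higher. Without S34F replicate 1 or S34F replicate 2 there were 4 calls each (1 of them higher without S34F replicate 1), without WT replicate 2 there were 6, and without WT replicate 3 there were 10. Over all combinations these fits gave 146, 99, 136 and 321 calls in the same order. DESeq2 called 8 members, all lower, and all 8 were among the 17. Limma on log2 odds called 0, with 59 lower and 24 higher at an unadjusted p under 0.05 and a smallest adjusted p of 0.0518. Of the 17 calls, 15 remained without WT replicate 1, 9 without WT replicate 3, 6 without WT replicate 2, 4 without S34F replicate 2, 3 without S34F replicate 1 and 0 without S34F replicate 3. In every fit that left out one library, more members were lower than higher at an unadjusted p under 0.05, with 45 to 81 lower and 14 to 39 higher. These fits share most of their libraries, so that they do not count as separate evidence. All combinations leaned the same way in the main edgeR fit, with 14.4% lower and 9.47% higher at an unadjusted p under 0.05.

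In percentage points, the largest difference was in a 21 nt exon of chromosome 6 (plus strand, 168314083 to 168314103), between introns of 1913 and 744 nt. Its inclusion was 64.2%, 72.5% and 58.0% in the WT libraries and 26.98%, 24.29% and 31.46% in the S34F libraries. The groups were far apart: the exon was mostly included in WT and mostly skipped in S34F. The means were 64.9% ± 7.3 and 27.6% ± 3.6 (SD, n = 3 each; change in log2 odds -2.22 with SE 0.38; adjusted p = 0.0047 in edgeR). Its upstream and downstream junctions had 273 and 282 pooled reads, and its skipping junction 354. All 3 junctions were annotated, and no other splice site that would lengthen the exon passed the read minimum. It was called in 15 of the 17 other fits, the exceptions being limma and the fit without S34F replicate 3 (adjusted p = 0.0802). In log2 odds, 5 other called exons differed by more, the most being the 30 nt exon of chromosome 3 described below (-3.88).

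A 12 nt exon of chromosome 19 (minus strand, 5218798 to 5218809) had a fall of 32.8 points. It was at 59.7%, 73.2% and 71.4% in WT and at 46.7%, 18.3% and 40.9% in S34F (adjusted p = 0.0297, edgeR). S34F replicate 2 was well below the other S34F libraries, on 38.5 to 74.5 reads per library. The skipping junction of this exon was unannotated although it held 173 pooled reads, about as many as the 162 and 184 of the inclusion junctions. A 27 nt exon of chromosome X (minus strand, 23752458 to 23752484) was at 79.9%, 84.0% and 66.7% in WT and 44.2%, 64.3% and 46.6% in S34F (adjusted p = 0.0277, edgeR). The lowest WT and the highest S34F library of this exon were only a little apart. An 18 nt exon of chromosome 5 (plus strand, 64951463 to 64951480) went from 73.5%, 84.5% and 85.0% to 54.4%, 63.8% and 50.8% (adjusted p = 0.0187, edgeR). These 4 exons had intermediate inclusion in WT and balanced inclusion junctions.

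Another 4 called exons were the minor form in WT already and fell further in S34F, 3 of them to a mean below 10%. A 24 nt exon of chromosome 4 (plus strand, 27009605 to 27009628) was at 34.6%, 41.8% and 25% in WT and at 8.64%, 6.98% and 7.69% in S34F. The S34F libraries were close to each other, although S34F replicate 2 had only 2 and 1 reads at the inclusion junctions (change in log2 odds -2.47 with SE 0.55; adjusted p = 0.0187 in edgeR). A 15 nt exon of chromosome 10 (minus strand, 27060004 to 27060018) was at 41.0%, 37.7% and 30.1% in WT and 16.2%, 19.2% and 14.5% in S34F. With 99 to 227 reads per library, the spread between replicates stayed small (36.3% ± 5.6 against 16.7% ± 2.4, SD, n = 3 each; adjusted p = 0.0219, edgeR). A 12 nt exon of chromosome 19 (minus strand, 49859216 to 49859227) was at 29.9%, 29.0% and 27.1% in WT and 4.24%, 11.5% and 7.63% in S34F (adjusted p = 0.0122, edgeR). A 27 nt exon of chromosome 11 (plus strand, 63673560 to 63673586) was at 17.6%, 15.3% and 15% in WT and 5.04%, 3.70% and 4.03% in S34F (adjusted p = 0.0409, edgeR). In all 4 exons every junction was annotated.

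The other 9 called exons had a WT mean above 88%. A 30 nt exon of chromosome 10 (plus strand, 92655211 to 92655240) was at 95.6%, 99.2% and 95.8% in WT. It was at 90.1%, 68.3% and 76.8% in S34F, where S34F replicate 1 stayed close to WT (change in log2 odds -3.07 with SE 0.62; adjusted p = 0.0118 in edgeR). Its skipping junction had 5, 1 and 4 reads in WT and 10, 30 and 38 in S34F. An 18 nt exon of chromosome 19 (minus strand, 14262945 to 14262962) was at 92.6%, 83.7% and 95.3% in WT and 72.5%, 64.7% and 65.7% in S34F (adjusted p = 0.0372, edgeR), on 21.5 to 70.0 reads per library. A 25 nt exon of chromosome 13 (plus strand, 25893464 to 25893488) was at 85.5%, 92.3% and 97.9% in WT and 77.8%, 60.0% and 82.1% in S34F (adjusted p = 0.0451, edgeR). These groups were separated by only a few points, from 82.1% to 85.5%.

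Of these 9, 4 more had balanced junctions and shorter falls, from 11.1 to 15.8 points. A 12 nt exon of chromosome 19 (plus strand, 39948934 to 39948945) was at 95.1% ± 3.3 against 84.0% ± 3.7. Another of 12 nt, of chromosome 16 (plus strand, 1808149 to 1808160), was at 91.7% ± 3.0 against 77.1% ± 5.4. The first had 106.5 to 391.5 reads per library, and the adjusted p-values were 0.0326 and 0.0418 in edgeR. A 20 nt exon of chromosome 19 (plus strand, 55855346 to 55855365) was at 93.9% ± 3.1 against 80.0% ± 6.2 (adjusted p = 0.0322, edgeR). Another 20 nt exon, on the minus strand of the same chromosome (3017838 to 3017857), was at 88.3% ± 3.3 against 72.5% ± 6.3 (adjusted p = 0.045, edgeR). Errors are SD with n = 3 in each group. These calls lay near the threshold: the chromosome 16 exon was called in 4 of 16 other fits, and the minus-strand 20 nt exon in 4 of 17.

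The remaining 2 calls did not have balanced junctions. An 18 nt exon of chromosome 15 (plus strand, 76209571 to 76209588) had 1265 pooled reads at its upstream junction and 10 at its downstream junction. Its level of 98.6% ± 1.2 in WT and 83.7% ± 5.0 in S34F therefore compares the annotated upstream junction with an unannotated skipping junction. That skipping junction had 2, 3 and 0 reads in WT replicates 1 to 3 and 14, 14 and 35 in S34F replicates 1 to 3. It thus reached its 10 reads through S34F. With the lesser inclusion junction alone the adjusted p of this exon was 0.647 in edgeR. With the upstream junction alone its difference was -8.322 points (adjusted p = 0.00303, edgeR), under the 10-point minimum. Neither junction alone thus gave a call. A 30 nt exon of chromosome 3 (plus strand, 42672038 to 42672067) had 79 and 425 pooled reads at its inclusion junctions and 16 at its unannotated skipping junction. It was at 100%, 98.3% and 100% in WT and 92.5%, 82.6% and 87.2% in S34F (adjusted p = 0.0285, edgeR), on 1 skipping read in all WT libraries together and 15 in S34F. The skipping junction thus reached its 10 reads through S34F. With the downstream junction alone the difference was -7.578 points, and with the upstream junction alone the adjusted p was 0.0566 in edgeR. Neither gave a call, and the exon was called in 5 of 16 other fits.

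**Figure D4:**
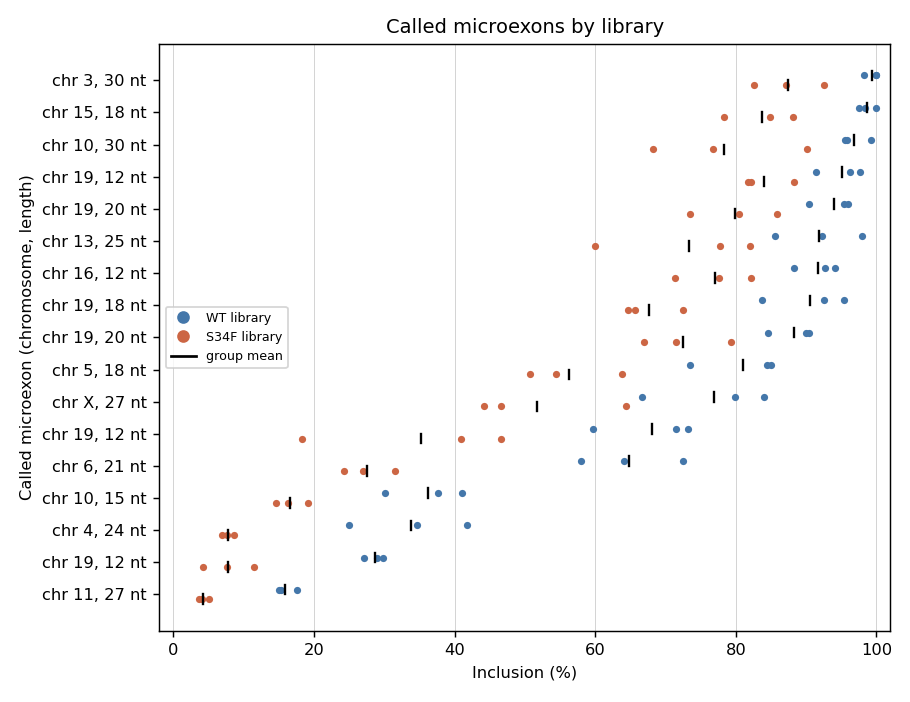
Inclusion in % (x axis) of the 17 called microexons in each WT and S34F library (points) with the group means (bars), ordered by WT mean and labelled by chromosome and length. In every called microexon all S34F points lie to the left of all WT points.

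A further 14 members passed the adjusted p-value threshold with a difference under 10 points, 12 lower and 2 higher, so that 31 members passed it, 29 lower and 2 higher. Over all combinations 5.76% passed it, 3.96% lower and 1.80% higher. An exon below 10% in WT cannot fall by 10 points. An 18 nt exon of chromosome 1 (plus strand, 39930767 to 39930784), annotated at all 3 junctions, was at 11.65%, 10.97% and 9.52% in WT and 4.11%, 2.17% and 2.27% in S34F (change in log2 odds -1.99 with SE 0.46; adjusted p = 0.0217 in edgeR). A 12 nt exon of chromosome X (minus strand, 153056019 to 153056030) was at 100%, 98.7% and 98.1% in WT and 88.8%, 87.4% and 93.1% in S34F (adjusted p = 0.0261, edgeR). Its inclusion junctions were equal to within 1.01-fold, and its skipping junction was unannotated. That junction had 0, 1 and 1 reads in WT replicates 1 to 3 and 9, 7 and 16 in S34F replicates 1 to 3. It thus reached its 10 reads through S34F. A 15 nt exon of chromosome 9 (plus strand, 131371930 to 131371944), singled out after its values were seen, had 5, 4 and 2 reads at either inclusion junction in WT and 0 in every S34F library. Its inclusion junctions thus reached their 10 reads through the WT libraries alone. Its WT inclusion was 6.85%, 8.33% and 5.88%. Taking 3 reads as the limit that a count of 0 allows, S34F inclusion could be up to 7.69%, 5.77% and 4.35% in replicates 1 to 3, counting error only. The edgeR adjusted p of 0.0305 is given with no fold change.

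The other 6 members of this kind that had the smallest p-values had unequal inclusion junctions. A 25 nt exon of chromosome 20 (plus strand, 47712713 to 47712737) fell from 5.76% ± 0.47 to 1.27% ± 0.75 (adjusted p = 0.00856, edgeR), with 235 and 44 pooled inclusion reads. A 17 nt exon of chromosome 11 (minus strand, 62620449 to 62620465) fell from 1.98% ± 1.4 to 0.209% ± 0.071 (adjusted p = 0.0114, edgeR), and its downstream junction had 20 reads in WT and 0 in S34F. That junction thus passed the read minimum through WT alone. The remaining 4 had junctions from 76.0-fold to 1250-fold apart. They were a 12 nt exon on chromosome 12 (57036457), a 22 nt exon on chromosome 17 (34151082), a 24 nt exon on chromosome 18 (34385337) and the 30 nt exon of chromosome 4 (56473465) described above. The unannotated skipping junction of the chromosome 17 exon had 4, 4 and 0 reads in WT and 22, 12 and 40 in S34F. It thus passed the read minimum through S34F. For this exon the edgeR adjusted p was 0.00825 with the upstream junction alone and 0.901 with the downstream junction alone. Of these 4, the first 3 fell by 1.38, 6.23 and 4.38 points, and the chromosome 4 exon rose by 1.70 points, from 97.4% ± 0.077 to 99.1% ± 0.21 (adjusted p = 0.0215, edgeR). The other member that rose was a 30 nt exon of chromosome 5 (minus strand, 98222301 to 98222330), named here after its values were seen. It was at 2.67%, 1.54% and 0.541% in WT and 7.25%, 13.3% and 12.3% in S34F (change in log2 odds 2.60 with SE 0.64; adjusted p = 0.0273 in edgeR). Both of its inclusion junctions were unannotated, and it missed the 10-point minimum with a difference of 9.38.

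Some exons were higher in S34F by a wide margin without passing the test. They were picked after their values were seen. A 27 nt exon of chromosome 17 (minus strand, 16054904 to 16054930), annotated throughout, was at 36.6%, 37.5% and 36.8% in WT and 58.1%, 54.4% and 57.5% in S34F. The groups did not overlap and each was tight, but the edgeR adjusted p was 0.0614 (log2 odds 1.16, SE 0.36). A 24 nt exon of chromosome 4 (plus strand, 160265188 to 160265211) had the largest positive difference, 20.1 points. Its WT libraries were spread from 39.4% to 71.4% and its S34F libraries from 67.8% to 78.4%, so that the groups overlapped (adjusted p = 0.156, edgeR). A 29 nt exon of chromosome 3 (plus strand, 47860726 to 47860754) was at 29.5% ± 13.4 in WT and 48.6% ± 9.2 in S34F (adjusted p = 0.229, edgeR).

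The counts at an unadjusted p under 0.05 varied with exon length inside the class. Among the 83 members of 3 to 15 nt, 24 were lower (28.9%) and 3 higher (3.61%) at an unadjusted p under 0.05. Among the 131 members of 16 to 24 nt, 28 were lower and 7 higher. Among the 173 members of 25 to 30 nt, 18 were lower and 19 higher. At an adjusted p under 0.05 in edgeR, the same class had 8 lower and 2 higher, and its 5 calls were all lower, so that the even split holds for the unadjusted counts alone. The neighbouring class of 31 to 60 nt leaned upward, with 11.9% of 2193 combinations lower and 15.8% higher. In the class of 61 to 100 nt the shares were 13.1% and 11.4%. These length classes were set after the data were seen, and their differences were not tested.

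**Figure D5:**
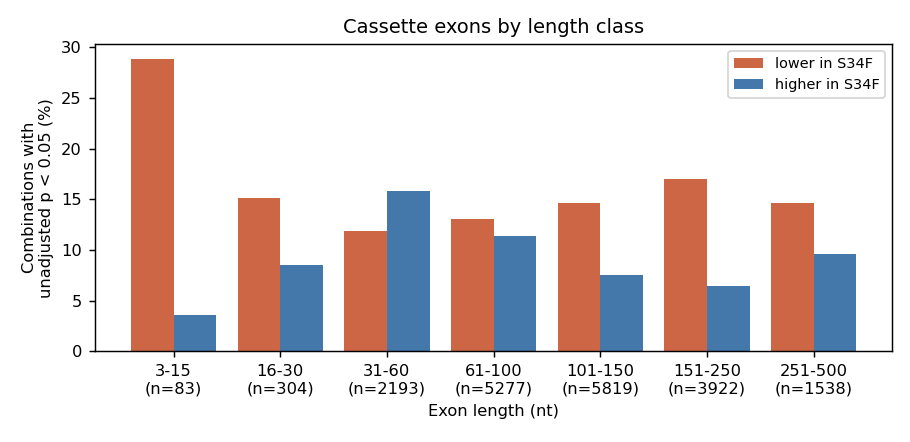
Share of cassette exon combinations with an unadjusted edgeR p under 0.05 (y axis, %), lower or higher in S34F, by exon length class in nt (x axis; n is the number of combinations). The 3 to 15 nt class has 28.9% lower and 3.61% higher, and the 31 to 60 nt class has more higher than lower.

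Calls were also counted by other features of the members. Members whose length was a multiple of 3 gave 14 calls from 225 members (6.22%), and the other lengths 3 calls from 162 (1.85%). Among longer exons these shares were 3.16% and 2.38%. Members with both inclusion junctions annotated gave 16 calls (6.37% of them), and the 136 members with an unannotated inclusion junction gave 1 (0.735%). Among longer exons the shares were close to each other, at 2.79% and 2.40%. The 62 members with only the skipping junction unannotated gave 5 calls (8.06%), beside 1.42% of the 5582 longer exons of this kind. At an unadjusted edgeR p under 0.05, 15 of the 62 members were lower and 4 higher, beside 1060 and 263 of the 5582 longer exons. With both inclusion junctions unannotated, 1 of 31 members was lower and 6 higher, beside 109 and 322 of 1926 longer exons. With all 3 annotated, 36 of 189 members were lower and 15 higher, beside 1096 and 905 of 8327 longer exons. The direction thus varied with which junction was unannotated, in longer exons too, but this was not tested. A rare unannotated junction passes the pooled 10-read minimum more easily if 1 group holds many reads of it. S34F replicate 3 was the deepest library. How far this selection set the directions was not tested. Balanced members gave 15 calls from 220 (6.82%), those over 2 to 10-fold apart 1 from 57 and those over 10-fold apart 1 from 110 (0.909%). Among longer exons the shares were 2.47%, 2.98% and 3.2% in the same order, with no excess in the balanced class. Among the 79 balanced members between 10% and 90% in WT, the median difference was -4.46 points and 9 were called, all lower. This subset was set after the data were seen, and balanced longer exons of the same WT range were not counted separately. Over all 121 members of this inclusion class the share called was 7.44%, close to the 6.88% of longer exons in the class. The longer exons, however, were called in both directions (3.30% lower and 3.58% higher), with a median difference of 0.983 points. Of these 79 exons, 66 had a length that is a multiple of 3. The features overlap, since balanced members were more often annotated (63.2% against 48.8% of all members) and more often a multiple of 3 (67.7% against 58.1%).

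The shortest exons showed no call. None of the 36 members of 3 to 9 nt was called, although 22.2% were lower and 2.78% higher at an unadjusted edgeR p under 0.05. So few members say little about the share called. A 3 nt exon of chromosome 20 (plus strand, 30955530 to 30955532), with 979 and 926 pooled inclusion reads, was at 96.5%, 95.3% and 100% in WT and 93.6%, 94.9% and 94.0% in S34F (adjusted p = 0.33, edgeR). Another of 3 nt of chromosome 3 (minus strand, 33605456 to 33605458) was at 95.5% ± 3.0 and 94.8% ± 5.1 (SD, n = 3 each; adjusted p = 0.73, edgeR). A 5 nt exon of chromosome 7 (plus strand, 35871102 to 35871106) was at 81.4% ± 1.6 and 75.9% ± 7.3, where the groups overlapped (adjusted p = 0.515, edgeR). The 3 nt exon on chromosome 14 (52470958) and the 4 nt exon on chromosome 9 (130924283) had junctions 106-fold and 7.18-fold apart and adjusted p-values of 0.186 and 0.23 in edgeR. All S34F libraries lay below all WT libraries in the chromosome 14 exon and above them in the chromosome 9 exon.

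A pair of well-read members at the limits of inclusion were picked among those with an unadjusted p over 0.5, so that their small differences follow from the choice. A 21 nt exon of chromosome 4 (minus strand, 56492923 to 56492943), unannotated, took 0.101% ± 0.062 in WT and 0.0835% ± 0.090 in S34F, on at least 2688 reads per library (adjusted p = 0.763, edgeR). An 8 nt exon of chromosome 19 (plus strand, 49993547 to 49993554) was at 99.97% and 99.98%, but its junctions were 280-fold apart. At the upper length limit, the most-read members of 30 nt lay on chromosome 1 (26800194 and 173835315), and both had over 99.9% inclusion in each genotype. Just outside it, the most-read exons of 31 nt lay on chromosome 7 (44838846), at 99.8% and 99.9%, and on chromosome 2 (188378343), at 73.4% and 75.3%. At the read minimum, the member with the fewest reads had 20 in its shallowest library.

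Depth and multi-mapping differed between the libraries. The median member had 108 to 268.5 reads in a library. Multi-mapped reads took 14.5%, 10.1% and 10.8% of the reads at the members' junctions in WT replicates 1 to 3 and 16.7%, 18.1% and 12.2% in S34F replicates 1 to 3. The means were 11.8% ± 2.4 and 15.6% ± 3.1 (SD, n = 3 each), and the groups overlapped. Their part in the results was not tested beyond adding these reads to the counts, which gave 14 calls, 13 of them lower and 13 shared with the 17.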

How the data were processed

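Splice junctions were measured in 3 WT and 3 S34F libraries. Reads were aligned with STAR to hg19, per the submitters' processing notes; version, annotation and junction filters are not given in the sources used here. The deposited tables, 1 per library and without a header, hold raw counts of unique and multi-mapped reads for each junction, with no normalization. A read across a microexon can count at both of its junctions, and short exons are easily missed in alignment, so that inclusion may be understated.

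The tables were joined on position (780566 junctions), an unlisted junction being 0. Only motif codes 1 to 6 and unique reads were used. The test was edgeR 4.0.16 (R 4.3.3), quasi-likelihood F-test, robust, legacy mode, fitted on all 19136 cassette exon combinations with Benjamini-Hochberg adjustment. The model held the rounded mean inclusion count and the skipping count of each library, one intercept for every library, a term for the kind of count, and its interaction with S34F (change in log2 odds). The intercepts remove depth. Standard errors were coefficients over the root of F. The script was tested on simulated data. DESeq2 1.42.0 and limma 3.58.1 (log2 odds with 0.5 added) were alternatives; Python 3.11.15 and pandas 2.3.3 handled tables.

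An exon with several skipping junctions is described by the most-read one. Described by rule were all called members, then those with the smallest p until 25 were reached, the 5 shortest, the most and least included among the 10 most-read with p over 0.5, and the most-read at the length limit. Further exons were picked after their values were seen, as stated where they appear. The members, lists and rules were chosen with earlier results of these data known. Same-numbered libraries did not deviate together (correlations -0.0819, -0.0201 and -0.0584), so that no pairing was used. The planned counts per gene, for regulators and for cell type markers, were not made, because gene positions of hg19 were not used here.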

Additional observations from a re-analysis of the deposited data

How the results depend on the processing

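The 17 microexon calls became 8 with DESeq2, 0 with limma, 11 with at least 50 reads per library (fewer tested; 10 lower and 1 higher), 6 with the replicate block, 7 with a minimum of 20 points, 31 with no minimum, 70 for 3 to 50 nt (40 lower and 30 higher, so that the single direction was lost) and 11 with all 3 junctions annotated. Leaving out each library gave from 0 to 31. The 521 calls over all cassette exons became 272 with DESeq2, 0 with limma (4309 at an unadjusted p under 0.05), 308 with at least 50 reads, 183 with the replicate block, 222 and 1102 with a minimum of 20 points and none, and 8 to 1045 without each library. Where no reason is given, the cause was not tested. Both counts stayed within 1.5 times with edgeR's newer dispersion, no minimum per library, multi-mapped reads, the overhang minimum, and the upstream, downstream or lesser inclusion junction alone. The lesser junction and the restriction to balanced junctions, with 15 calls, were chosen after seeing the data. None of the 34 members chosen for description by rule reversed direction past the threshold in the 17 other fits that gave it a value. Exons picked after their values were seen were not part of this check. The alternatives for genes were not run. Few reads limit the precision of many members.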
